A study of Drosophila melanogaster with 8 samples.

Results

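The transcripts of 10 genes in the sex determination branch below Sxl were followed in female *Drosophila melanogaster* cells in which Sxl RNA had been targeted. The genes were chosen by name: the splicing regulators tra and tra2, the transcription factor genes dsx and fru that act below them, the co-regulators ix and her, and the dsx targets bab1, bab2, Yp1 and Yp3. They were read by 17 probe sets of the array, of 18769 probe sets that were not array controls and 11982 genes with a probe set of their own. tra, tra2, ix, her, bab1, bab2, Yp1 and Yp3 had 1 probe set each, dsx had 2 and fru had 7.

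The study treated Kc cells with double-stranded RNA (dsRNA) and hybridised their total RNA to 8 Affymetrix expression arrays. There were 3 arrays of Sxl RNAi, 2 arrays of Sxl and Msl2 RNAi, in which both genes were targeted, and 3 arrays of GFP RNAi, the control, whose dsRNA has no target in the fly genome. The comparisons asked what follows when a female line loses SXL, and how much of that needs MSL2, the subunit of the dosage compensation complex that SXL keeps off in females. The labels name the GFP array that served as control of each knockdown array. Control set 1 held Sxl RNAi replicate 2, Sxl and Msl2 RNAi replicate 1 and GFP RNAi replicate 1. Control set 2 held Sxl RNAi replicate 1 and GFP RNAi replicate 2, with no array of the double knockdown, and control set 3 held Sxl RNAi replicate 3, Sxl and Msl2 RNAi replicate 2 and GFP RNAi replicate 3. Kc is 1 established line from female embryos with features of blood cells, so it stands neither for the fat body, where yolk proteins are made, nor for the abdominal epidermis or leg, where bab genes are studied. Nothing in the labels states that replicates came from separate cultures. The p-values then cover only the spread between these arrays, which may be technical, and so few arrays leave wide intervals.

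In female flies SXL binds the tra transcript and steers its splicing to a form that encodes full-length TRA protein, whereas the default splice in males keeps an early stop codon. TRA, together with the TRA2 protein of both sexes, then directs the female splice of dsx and prevents the male FRU proteins from being made from fru transcripts. The female and male forms of DSX set the level of genes such as the yolk protein genes and bab in opposite directions, the female form with IX as its partner. The array reads the amount of transcript that meets each probe set, on a log2 scale. Which sex-specific splice forms of tra, dsx and fru each probe set meets was not analysed here, so the values below are levels of transcript and not of splicing. RefSeq lists 2 transcripts of tra, 7 of tra2, 7 of dsx, 15 of fru and 1 of ix.

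The check of the targeted genes was as follows. The Sxl probe set 1634337_s_at read 6.51, 5.56 and 6.52 in Sxl RNAi replicates 1 to 3, 6.24 and 6.41 in Sxl and Msl2 RNAi replicates 1 and 2, and 6.73, 6.87 and 6.91 in GFP RNAi replicates 1 to 3, and it fell by 0.64 with Sxl RNAi (limma adjusted p = 0.0373). Its difference in the double knockdown was -0.43 (limma adjusted p = 0.310), and the other bright Sxl probe set, 1632915_s_at, differed by -0.51 and -0.05 without passing (limma adjusted p = 0.124 and 0.951). The 1634337_s_at call was lost without Sxl RNAi replicate 2 (-0.37, limma adjusted p = 0.0628), GFP RNAi replicate 1 (-0.48, limma adjusted p = 0.202) or GFP RNAi replicate 3 (-0.68, limma adjusted p = 0.0840). A fall in Sxl RNA thus passed in 1 of these 2 probe sets with Sxl RNAi and in neither with Sxl and Msl2 RNAi. For 1634337_s_at both double knockdown arrays still read below all 3 GFP arrays. msl-2 read 6.19, 5.33 and 5.61 in Sxl RNAi, 4.16 and 4.13 in Sxl and Msl2 RNAi, and 4.32, 4.47 and 4.51 in GFP RNAi. It rose by 1.28 with Sxl RNAi (limma adjusted p = 0.000966) and differed by -0.16 from GFP RNAi in the double knockdown without passing (limma adjusted p = 0.728). The GFP RNAi values of msl-2 were close to 4.31, the highest signal of Y-linked genes, described below. A fall from such dim values could hardly be seen. Of 12 probe sets of blood cell markers, 9 lay above 4.31 in all arrays. Among them were Hml, between 10.8 and 11.9, and srp, between 10.3 and 11.1. So did 5 of 9 probe sets of neuron markers, 2 of 5 of fat body markers and 3 of 10 of germ line and testis markers. The arrays of control set 2 stood apart: they correlated with each other at 0.996 and with the other arrays at 0.985 to 0.989, and 17.1% of all probe sets passed the test of set 2 against sets 1 and 3.

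Signal was first set beside that of Y-linked genes, which a female genome lacks. Their 9 probe sets, of 7 genes, read between 3.19 and 4.31 over all arrays, and this range served as a rough measure of the signal of an untranscribed gene. Probe sets of tra, tra2, ix and bab2 and 5 of the 7 of fru lay above it in all 8 arrays, 9 probe sets of 5 genes. Both dsx probe sets, fru 1641338_at, her, bab1 and Yp1, 6 probe sets, lay within it in all 8 arrays, and fru 1638111_at and Yp3 were at or below its upper end in 3 of 8 arrays each. Signals this dim limit what can be seen of a change in level for those 8 probe sets. Probe sets differ in how strongly they bind, so their signals do not rank the genes by abundance.

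**Figure D1:**
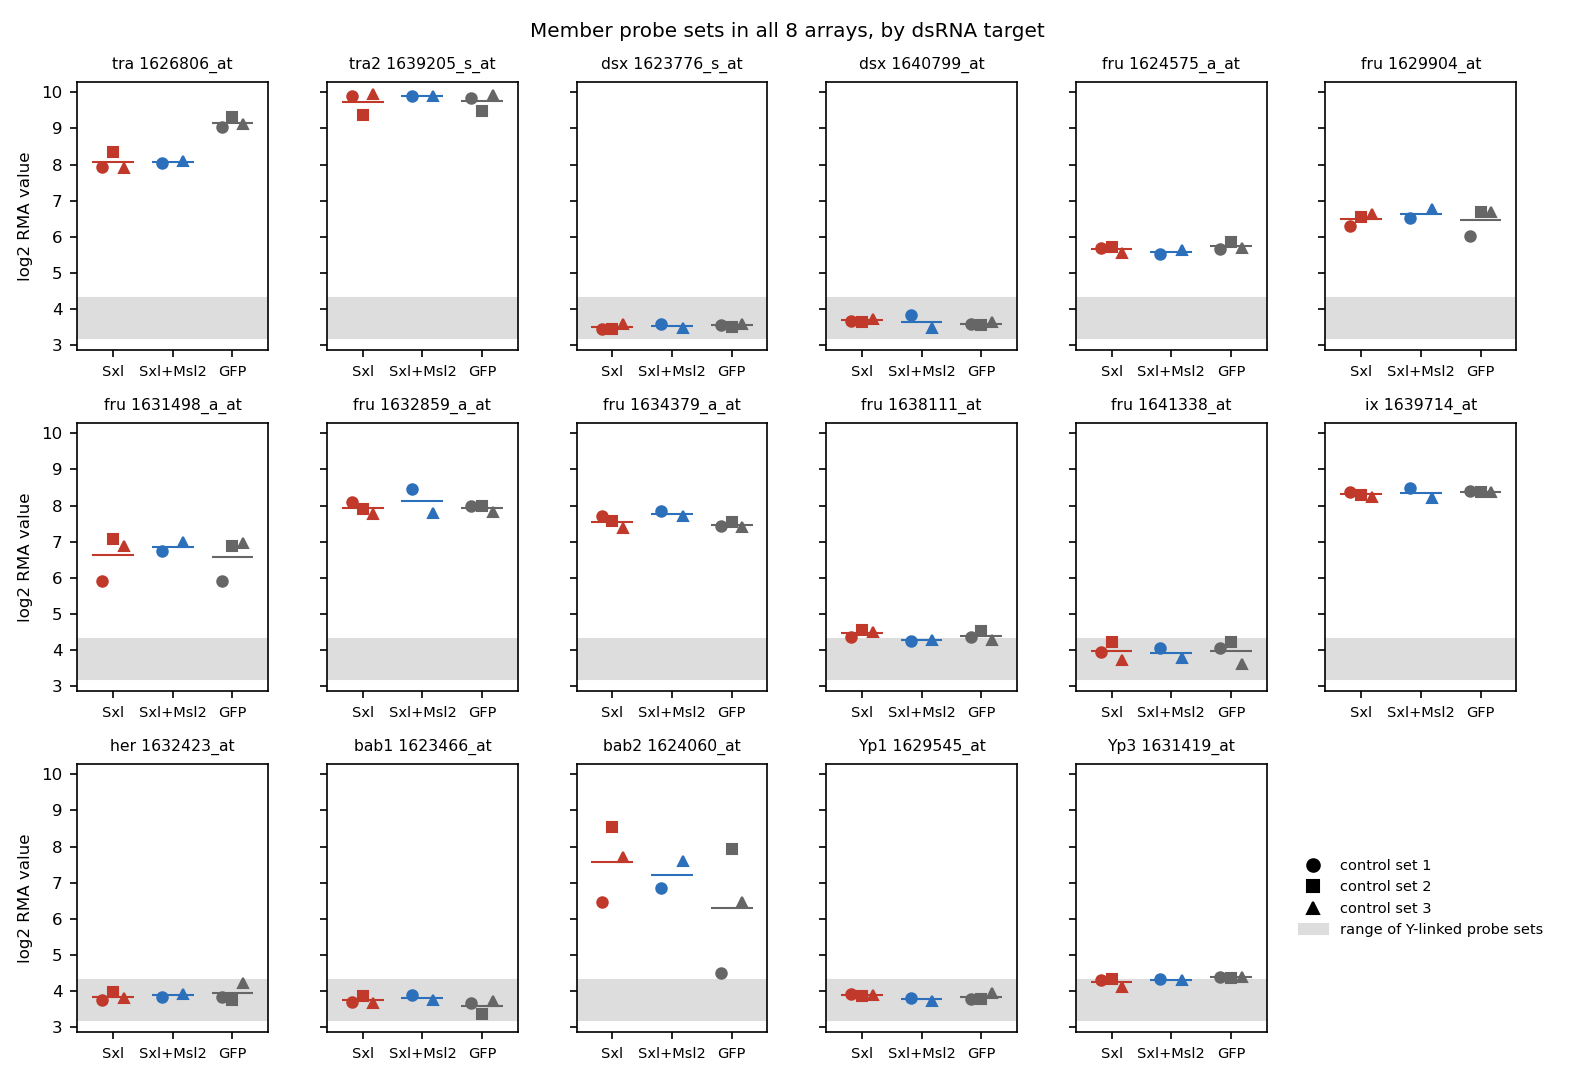
Each panel shows 1 member probe set, with the log2 RMA value of each of the 8 arrays on the vertical axis, by treatment (Sxl RNAi, Sxl and Msl2 RNAi, GFP RNAi) on the horizontal axis. Lines are group means, marker shapes are control sets and the grey band is the range of the Y-linked probe sets, 3.19 to 4.31. tra is lower in all 5 knockdown arrays than in all 3 GFP arrays, bab2 varies most between control sets, and dsx, her, bab1 and Yp1 stay in the band.

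Counted over all members, 2 of 17 probe sets passed with Sxl RNAi, bab2 higher and tra lower, where 6.87% of all 18769 probe sets passed, 4.06% higher and 2.81% lower. The same 2 passed with Sxl and Msl2 RNAi, where 2.55% of all passed, 1.36% higher and 1.19% lower. In Sxl RNAi against Sxl and Msl2 RNAi none of the 17 passed by limma, where 0.559% of all did. At an unadjusted p under 0.05, 2 of the 17 passed with Sxl RNAi, 4 with Sxl and Msl2 RNAi and 2, both of fru, between the knockdowns, where 18.1%, 14.6% and 9.52% of all probe sets did. The members' median difference was 0.01, 0.00 and -0.05 in these comparisons, beside -0.01, -0.00 and -0.01 over all probe sets. All 5 knockdown arrays lay on 1 side of all 3 GFP arrays for 2 members, tra and Yp3, where 6.02% of all probe sets did so. Both double knockdown arrays alone lay on 1 side of the GFP arrays for 6 of 17, where 23.4% of all did. The shares that passed over all probe sets also apply to the counts in the gene lists below.

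**Figure D2:**
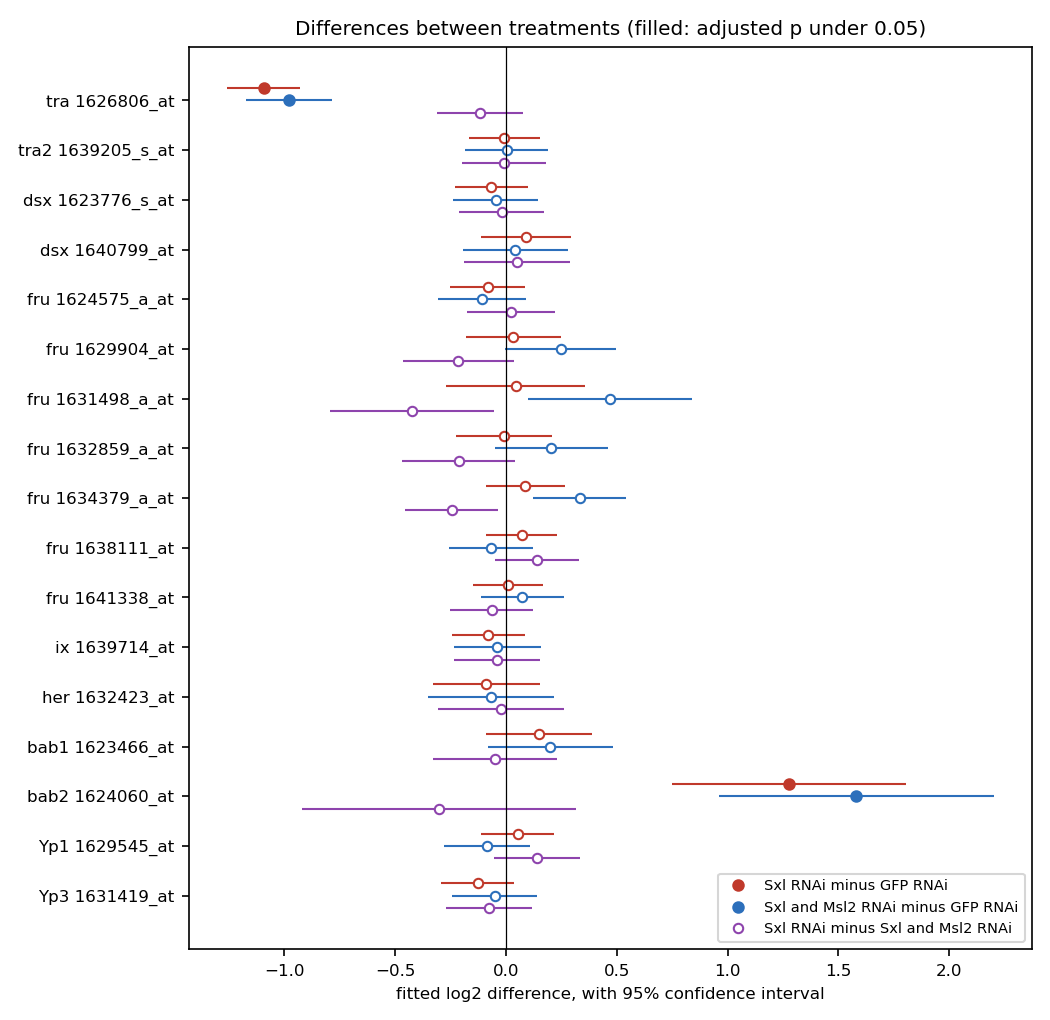
Fitted log2 differences with 95% confidence intervals on the horizontal axis for the 17 member probe sets on the vertical axis, for Sxl RNAi minus GFP RNAi, Sxl and Msl2 RNAi minus GFP RNAi, and Sxl RNAi minus Sxl and Msl2 RNAi. Filled points passed an adjusted p of 0.05. tra (-1.09 and -0.98) and bab2 (1.28 and 1.58) passed in both knockdowns and no member passed between the knockdowns.

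tra was lower in both knockdowns. Its probe set 1626806_at read 8.35, 7.93 and 7.91 in Sxl RNAi replicates 1 to 3, 8.05 and 8.10 in Sxl and Msl2 RNAi replicates 1 and 2, and 9.05, 9.31 and 9.11 in GFP RNAi replicates 1 to 3 (log2 values). All 5 knockdown arrays were below all 3 GFP arrays, and the groups did not overlap. The means were 8.06 ± 0.25 in Sxl RNAi (SD, n = 3), 8.07 ± 0.03 in Sxl and Msl2 RNAi (SD, n = 2) and 9.16 ± 0.13 in GFP RNAi (SD, n = 3). Against the GFP array of its own control set, Sxl RNAi gave differences of -1.12 in set 1, -0.96 in set 2 and -1.20 in set 3. The double knockdown gave -1.0 in set 1 and -1.02 in set 3. The knockdown was therefore the lower array in 5 of 5 pairs, by similar amounts.

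In the fit tra fell by 1.09 ± 0.07 SE with Sxl RNAi, a level 2.13-fold lower (95% interval -1.26 to -0.93, limma adjusted p = 0.000321). With Sxl and Msl2 RNAi it fell by 0.98 ± 0.09 SE, 1.97-fold lower (95% interval -1.17 to -0.78, limma adjusted p = 0.00177). Both comparisons use the same GFP arrays. The knockdowns were also compared directly: tra in Sxl RNAi minus tra in Sxl and Msl2 RNAi was -0.12 (95% interval -0.31 to 0.08, limma adjusted p = 0.736), and the difference was -0.11 in set 1 and -0.19 in set 3. Leaving out any 1 array kept both calls. Without the control set block the value for Sxl RNAi passed (limma adjusted p = 0.0410), and that for the double knockdown did not (-1.09, limma adjusted p = 0.159).

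**Figure D3:**
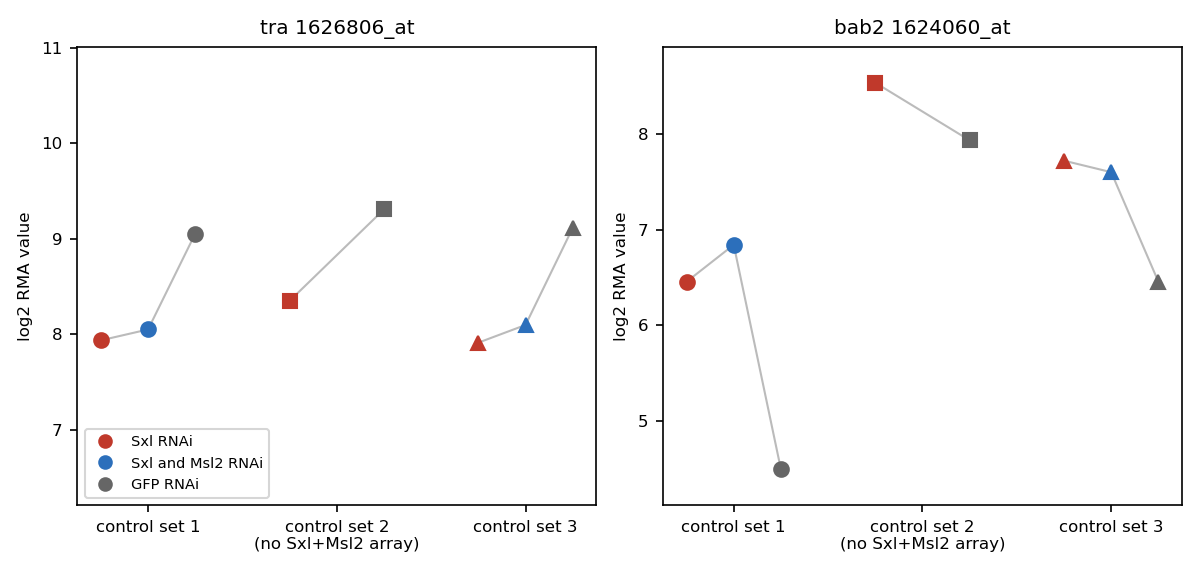
log2 RMA values of tra (left panel) and bab2 (right panel) on the vertical axes, by control set on the horizontal axes, with the treatments in the order Sxl RNAi, Sxl and Msl2 RNAi, GFP RNAi within a set. Grey lines join arrays of a set. Each GFP array is the highest of its set for tra and the lowest of its set for bab2, and bab2 moves more between sets than tra does.

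l(3)73Ah, which overlaps tra in the RefSeq table, did not share its fall. It differed by -0.00 with Sxl RNAi and by -0.06 with Sxl and Msl2 RNAi without passing (limma adjusted p = 0.992 for Sxl RNAi). Its values were 8.41, 8.29 and 8.18 in Sxl RNAi, 8.28 and 8.11 in Sxl and Msl2 RNAi, and 8.41, 8.34 and 8.13 in GFP RNAi.

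tra2, whose RNA-binding protein partners TRA on dsx and fru transcripts, was the second splicing regulator. 1639205_s_at read 9.37, 9.89 and 9.96 in Sxl RNAi replicates 1 to 3, 9.91 and 9.91 in Sxl and Msl2 RNAi, and 9.84, 9.49 and 9.92 in GFP RNAi replicates 1 to 3. The groups overlapped, and the lowest arrays were those of control set 2, 1 of Sxl RNAi and 1 of GFP RNAi. The fitted difference was -0.01 with Sxl RNAi (95% interval -0.17 to 0.15, limma adjusted p = 0.981) and 0.00 with Sxl and Msl2 RNAi (95% interval -0.19 to 0.19, limma adjusted p = 0.994). A change in tra2 of the size seen in tra lies outside both intervals.

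Among the factors that work with Sxl, tra and tra2 in splicing, 16 of 20 listed genes were measured, by 28 probe sets, 24 of them above the Y-linked range in all arrays. With Sxl RNAi 1 probe set rose and none fell: U2af50, the large subunit of the factor that marks the 3′ splice site and that SXL displaces on tra, was higher by 0.44 (limma adjusted p = 0.00703), a call lost without Sxl RNAi replicate 2 (0.39) or GFP RNAi replicate 1 (0.39), with limma adjusted p of 0.0574 and 0.0549. With Sxl and Msl2 RNAi none passed, and U2af50 differed by 0.13 (limma adjusted p = 0.548). U2af50 lies on the X chromosome, where the paper reports a general rise in transcription with Sxl RNAi that needed MSL2. Whether the rise of U2af50 was part of that was not tested. The list's median difference was -0.03 with Sxl RNAi and 0.08 with Sxl and Msl2 RNAi, beside -0.01 and -0.00 over all probe sets. Of the genes listed for X chromosome counting and the establishment of Sxl in the embryo, 9 of 12 were measured. They had 23 probe sets, most of them of lola. With Sxl RNAi 1 fell, the lola probe set 1623411_at (-0.34, limma adjusted p = 0.0227), and none of the other lola probe sets passed. None of the list passed in the double knockdown. The call of lola 1623411_at was lost without Sxl RNAi replicate 2 or 3 or GFP RNAi replicate 1 or 3 (limma adjusted p from 0.0887 to 0.143).

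dsx, the transcription factor gene at the end of the branch, gave no signal above the Y-linked range. 1623776_s_at read 3.44, 3.45 and 3.58 in Sxl RNAi, 3.58 and 3.48 in Sxl and Msl2 RNAi, and 3.56, 3.51 and 3.59 in GFP RNAi. 1640799_at read 3.65, 3.67 and 3.73 in Sxl RNAi, 3.82 and 3.47 in Sxl and Msl2 RNAi, and 3.58, 3.57 and 3.63 in GFP RNAi. No dsx value exceeded 4.31 in any treatment. The fitted differences of both probe sets lay between -0.07 and 0.09 and none passed. dsx overlaps lds, whose level was well above the Y-linked range at 8.23 and differed by -0.15 with Sxl RNAi (limma adjusted p = 0.346).

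fru encodes BTB zinc finger proteins, of which the male forms organise courtship circuits while common forms are made in both sexes. Its 7 probe sets did not all vary together. Over the 8 arrays, 1629904_at and 1631498_a_at went together (Pearson r = 0.906), as did 1632859_a_at and 1634379_a_at (r = 0.716), while 1638111_at and 1634379_a_at gave r = -0.432. These correlations describe 8 arrays that share treatments and control sets, and they were not tested. 1638111_at was also at or below the upper end of the Y-linked range in 3 of 8 arrays.

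In the first of these fru pairs, 1631498_a_at read 7.08, 5.91 and 6.89 in Sxl RNAi replicates 1 to 3, 6.73 and 7.0 in Sxl and Msl2 RNAi replicates 1 and 2, and 5.90, 6.88 and 6.97 in GFP RNAi replicates 1 to 3. The Sxl RNAi and GFP RNAi arrays of control set 1 were the low ones, whereas the double knockdown array of that set was not. 1629904_at read 6.56, 6.30 and 6.64 in Sxl RNAi, 6.51 and 6.77 in Sxl and Msl2 RNAi, and 6.02, 6.68 and 6.69 in GFP RNAi, where the same GFP array was lowest. The groups overlapped for both.

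In the second pair, 1632859_a_at read 7.90, 8.11 and 7.77 in Sxl RNAi, 8.47 and 7.79 in Sxl and Msl2 RNAi, and 7.99, 8.0 and 7.81 in GFP RNAi. 1634379_a_at read 7.59, 7.71 and 7.37 in Sxl RNAi, 7.84 and 7.70 in Sxl and Msl2 RNAi, and 7.44, 7.55 and 7.42 in GFP RNAi. For 1634379_a_at both double knockdown arrays were above all 3 GFP arrays, and for 1632859_a_at only that of set 1 was. The other fru probe sets were 1624575_a_at, between 5.52 and 5.86, 1638111_at, between 4.25 and 4.54, and 1641338_at, between 3.62 and 4.23, with overlapping groups in Sxl RNAi and GFP RNAi. For 1624575_a_at and 1638111_at both double knockdown arrays were below all 3 GFP arrays, with differences of -0.11 and -0.07 that did not pass (limma adjusted p = 0.667 and 0.796).

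No fru probe set passed in any comparison of treatments. With Sxl RNAi the 7 differences lay between -0.08 and 0.09. With Sxl and Msl2 RNAi the largest were 0.47 for 1631498_a_at (95% interval 0.10 to 0.84, limma adjusted p = 0.211) and 0.33 for 1634379_a_at (95% interval 0.12 to 0.54, limma adjusted p = 0.112). By control set, 1631498_a_at gave 0.83 in set 1 and 0.03 in set 3 against GFP RNAi, so its value came from 1 of 2 pairs, and without Sxl and Msl2 RNAi replicate 2 it passed (0.85, limma adjusted p = 0.0329). 1634379_a_at gave 0.40 in set 1 and 0.29 in set 3. In Sxl RNAi minus Sxl and Msl2 RNAi, these probe sets were at -0.43 and -0.24 (limma adjusted p = 0.432 and 0.423).

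**Figure D4:**
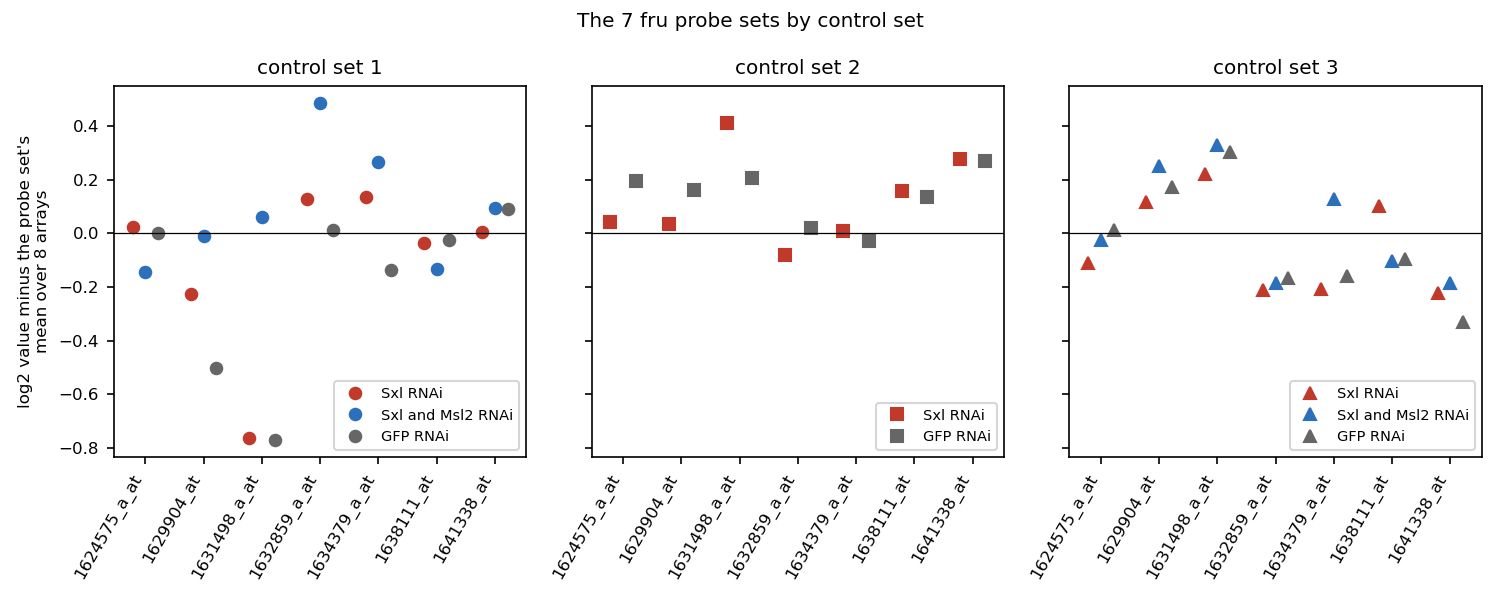
Each panel is 1 control set. The vertical axis gives the log2 value of each array minus the mean of that fru probe set over all 8 arrays, for the 7 probe sets on the horizontal axis, with Sxl RNAi, Sxl and Msl2 RNAi and GFP RNAi side by side (set 2 has no double knockdown array). 1631498_a_at is lowest in Sxl RNAi and GFP RNAi of set 1, and in that set the double knockdown is the highest array for 1629904_at, 1631498_a_at, 1632859_a_at and 1634379_a_at.

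Of the genes that act with or below fru, 9 of 11 were measured, by 11 probe sets, 4 of them above the Y-linked range in all arrays. None passed in either knockdown. Among those 4 were the cofactor gene bon, the histone deacetylase gene HDAC1 and the axon guidance receptor gene robo1, whose differences with Sxl RNAi were -0.18, 0.04 and -0.17.

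ix, a Mediator subunit that the female form of DSX needs, varied little between the GFP RNAi arrays and spanned 0.28 over all 8 arrays. 1639714_at read 8.29, 8.39 and 8.25 in Sxl RNAi, 8.50 and 8.22 in Sxl and Msl2 RNAi, and 8.41, 8.38 and 8.39 in GFP RNAi. The GFP arrays spanned 0.03, and 98.2% of all probe sets had a wider span there. The differences were -0.08 with Sxl RNAi (95% interval -0.25 to 0.09) and -0.04 with Sxl and Msl2 RNAi (95% interval -0.23 to 0.16), neither passing (limma adjusted p = 0.676 and 0.905). her, a zinc finger gene needed for female development, read 3.97, 3.74 and 3.82 in Sxl RNAi, 3.83 and 3.92 in Sxl and Msl2 RNAi, and 3.84, 3.75 and 4.21 in GFP RNAi, all within the Y-linked range.

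bab2 was higher in both knockdowns and also differed between control sets. It encodes a BTB transcription factor that, with its neighbour bab1, patterns the leg, the ovary and female abdominal pigment. 1624060_at read 8.54, 6.45 and 7.72 in Sxl RNAi replicates 1 to 3, 6.84 and 7.60 in Sxl and Msl2 RNAi replicates 1 and 2, and 4.49, 7.94 and 6.45 in GFP RNAi replicates 1 to 3. The groups overlapped: the GFP array of set 2 was above both double knockdown arrays and above 2 of 3 Sxl RNAi arrays. The GFP array of set 1, at 4.49, was just above the Y-linked range. The means were 7.57 ± 1.05 in Sxl RNAi (SD, n = 3), 7.22 ± 0.54 in Sxl and Msl2 RNAi (SD, n = 2) and 6.29 ± 1.73 in GFP RNAi (SD, n = 3). The GFP arrays alone spanned 3.45, and only 22 of 18769 probe sets (0.117%) spanned more.

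Within control sets bab2 was the higher in the knockdown in 5 of 5 pairs. Sxl RNAi minus GFP RNAi was 1.97 in set 1, 0.60 in set 2 and 1.27 in set 3. Sxl and Msl2 RNAi minus GFP RNAi was 2.35 in set 1 and 1.15 in set 3. The fit put the rise at 1.28 ± 0.23 SE with Sxl RNAi, 2.43-fold (95% interval 0.75 to 1.81, limma adjusted p = 0.0125), and at 1.58 ± 0.28 SE with Sxl and Msl2 RNAi, 2.99-fold (95% interval 0.96 to 2.20, limma adjusted p = 0.0216). Sxl RNAi minus Sxl and Msl2 RNAi was -0.30 (95% interval -0.92 to 0.32, limma adjusted p = 0.797), with -0.39 in set 1 and 0.12 in set 3.

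These bab2 calls rested on the control set as a block and on single arrays. Without the block the values were 1.28 with Sxl RNAi and 0.93 with Sxl and Msl2 RNAi (limma adjusted p = 0.859 and 0.901). The Sxl RNAi call was lost without Sxl RNAi replicate 2 (1.12, limma adjusted p = 0.0935) or replicate 3 (1.17, limma adjusted p = 0.0689). The double knockdown call was lost without Sxl and Msl2 RNAi replicate 1 (1.15, limma adjusted p = 0.253), GFP RNAi replicate 1 (1.10, limma adjusted p = 0.0595) or GFP RNAi replicate 3 (1.73, limma adjusted p = 0.0546). With both arrays of control set 2 left out the rises were 1.62 and 1.75 (limma adjusted p = 0.00493 and 0.00638).

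bab1, which lies beside bab2 and shares its roles, read 3.87, 3.71 and 3.66 in Sxl RNAi, 3.88 and 3.76 in Sxl and Msl2 RNAi, and 3.68, 3.37 and 3.73 in GFP RNAi. All of these lay within the Y-linked range, and the differences were 0.15 with Sxl RNAi and 0.20 with Sxl and Msl2 RNAi (limma adjusted p = 0.551 and 0.535). The gene on the other side of bab2, CG13912, differed by -0.02 and 0.10, also without passing. Among 13 measured partners of bab in the leg and ovary, read by 18 probe sets of which 2 lay above the Y-linked range in all arrays, none passed in any comparison.

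Pigmentation genes that lie downstream of bab in the abdomen were measured for 9 of 12 listed genes, 4 of 9 probe sets above the Y-linked range in all arrays. With Sxl RNAi 2 fell, y by 0.52 (limma adjusted p = 0.0359) and yellow-b by 0.39 (limma adjusted p = 0.0398). With Sxl and Msl2 RNAi y fell by 0.88 (limma adjusted p = 0.0176) and yellow-b differed by -0.49 (limma adjusted p = 0.0561). Of all probe sets, 2.81% fell with Sxl RNAi and 1.19% with Sxl and Msl2 RNAi. y, which encodes a secreted protein of black pigment, read 4.74, 4.62 and 5.06 in Sxl RNAi, 4.17 and 4.94 in Sxl and Msl2 RNAi, and 5.05, 4.93 and 6.00 in GFP RNAi. Its groups overlapped and 1 double knockdown array was within the Y-linked range. With Sxl RNAi neither y nor yellow-b passed without Sxl RNAi replicate 2 or 3, either double knockdown array or GFP RNAi replicate 1 or 3 (limma adjusted p from 0.0601 to 0.215). In the double knockdown y did not pass without either array of that group or GFP RNAi replicate 1 or 3 (limma adjusted p from 0.0575 to 0.194). The list's median difference was -0.11 with Sxl RNAi and -0.06 with Sxl and Msl2 RNAi.

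Markers of blood cells were measured for all 11 listed genes, by 12 probe sets, 9 above the Y-linked range in all arrays. With Sxl RNAi 1 rose and 2 fell, and the same counts held with Sxl and Msl2 RNAi. Of all probe sets, 4.06% rose and 2.81% fell with Sxl RNAi, and 1.36% rose and 1.19% fell with Sxl and Msl2 RNAi. Pxn, a peroxidase of blood cells and matrix, read 9.30, 6.92 and 8.51 in Sxl RNAi, 7.33 and 7.78 in Sxl and Msl2 RNAi, and 5.71, 8.45 and 6.39 in GFP RNAi (probe set 1640097_at). As with bab2, set 2 was high, set 1 low and each GFP array the lowest of its set. Pxn 1640097_at rose by 1.39 and 1.37 (limma adjusted p = 0.00586 and 0.0258), while the other Pxn probe set passed in neither knockdown. The second of these calls was lost without Sxl and Msl2 RNAi replicate 1 (1.02) or 2 (1.71) or GFP RNAi replicate 1 (1.35) or 3 (1.12), with limma adjusted p from 0.0707 to 0.289. The matrix genes Ppn and Glt fell, by 1.33 and 0.75 with Sxl RNAi (limma adjusted p = 0.0217 and 0.0243) and both were also lower with Sxl and Msl2 RNAi, at -1.63 and -1.40 (limma adjusted p = 0.0344 and 0.00906). With Sxl RNAi Ppn and Glt did not pass without Sxl RNAi replicate 3 or GFP RNAi replicate 1 or 3, nor Glt without Sxl RNAi replicate 2 (limma adjusted p from 0.0591 to 0.150). In the double knockdown neither passed without either array of that group or GFP RNAi replicate 1, nor Ppn without GFP RNAi replicate 3 or Sxl RNAi replicate 3 (limma adjusted p from 0.0538 to 0.284). The summed log2 level of the 12 marker probe sets was 90.1 to 94.9 in Sxl RNAi, 91.8 to 92.0 in Sxl and Msl2 RNAi and 89.4 to 95.2 in GFP RNAi. In bulk RNA, fewer cells of a type and less RNA per cell cannot be told apart, and the part of these markers in the bab2 result was not tested.

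The yolk protein genes Yp1, Yp2 and Yp3 lie on the X chromosome and gave no call. Yp1, which encodes a yolk protein made in the female fat body under DSX, read 3.85, 3.92 and 3.90 in Sxl RNAi, 3.82 and 3.74 in Sxl and Msl2 RNAi, and 3.79, 3.78 and 3.95 in GFP RNAi, all within the Y-linked range. Yp3 read 4.33, 4.29 and 4.12 in Sxl RNAi, 4.32 and 4.30 in Sxl and Msl2 RNAi, and 4.39, 4.36 and 4.37 in GFP RNAi. All 5 knockdown arrays of Yp3 were below all 3 GFP arrays, but its differences were small at -0.13 and -0.05 and did not pass (limma adjusted p = 0.428 and 0.863). Yp2, the third of these genes and the neighbour of Yp1, was above the Y-linked range in all arrays and differed by -0.01 and 0.12 without passing (limma adjusted p = 0.978 and 0.672). Fat body markers were measured for 5 of 8 listed genes, with 2 of 5 probe sets above the Y-linked range in all arrays and none passing in either knockdown.

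In the wider list of yolk and vitellogenesis genes, which holds receptors and regulators that many cells use, 11 of 13 genes were measured by 14 probe sets. With Sxl RNAi 1 rose, Met, a receptor of juvenile hormone (0.39, limma adjusted p = 0.0101, and 0.0614 without Sxl RNAi replicate 2 or 0.0505 without GFP RNAi replicate 1), and with Sxl and Msl2 RNAi none passed (Met -0.01, limma adjusted p = 0.971). Of the genes reported as targets or partners of dsx, 18 of 24 were measured, by 24 probe sets, 10 above the Y-linked range in all arrays. None passed with Sxl RNAi, and with Sxl and Msl2 RNAi 1 fell, the FGF ligand bnl (1627135_at, -1.01, limma adjusted p = 0.0142). The other bnl probe sets did not pass. bnl 1627135_at read 7.12, 7.67 and 7.78 in Sxl RNAi, 7.55 and 6.94 in Sxl and Msl2 RNAi, and 8.50, 7.33 and 8.13 in GFP RNAi, with overlapping groups, and its Sxl RNAi difference was -0.46 (limma adjusted p = 0.0725). The bnl call was lost without either double knockdown array or GFP RNAi replicate 1 or 3 (limma adjusted p from 0.0576 to 0.138). Between the knockdowns no probe set of these lists passed apart from that of msl-2, higher by 1.43 in Sxl RNAi (limma adjusted p = 0.00588). The msl-2 call was lost in 5 of 16 alternative settings.

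By control set, 5 of the 17 probe sets differed between set 2 and sets 1 and 3, beside the 17.1% of all. bab2 was higher in set 2 by 1.96 ± 0.25 SE, 3.89-fold (limma adjusted p = 0.000549). tra was higher by 0.32 (limma adjusted p = 0.0177) and tra2 lower by 0.48 (limma adjusted p = 0.00206). fru 1631498_a_at was higher by 0.56 (limma adjusted p = 0.0282) and fru 1641338_at, which was within the Y-linked range in all arrays, by 0.39 (limma adjusted p = 0.00603). In fitted size the step between sets was larger than either treatment difference for bab2 and smaller than both for tra, which was not tested. Markers of blood cells moved with set 2: of 12 probe sets 5 were higher there and 4 lower. Pxn was higher by 1.99, and the collagen IV gene Col4a1 was lower by 3.66, at 6.75 in Sxl RNAi replicate 1 and 5.70 in GFP RNAi replicate 2, against 9.67 to 10.1 in the other arrays. Of the splicing partners 11 of 28 probe sets were higher in set 2 and 2 lower.

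Some of these calls between control sets depended on 1 array. bab2 passed without any 1 array. tra did not pass without Sxl RNAi replicate 1 (0.22), 2 (0.32) or 3 (0.29), with limma adjusted p of 0.276, 0.0557 and 0.0673. tra2 did not pass without Sxl RNAi replicate 1 (-0.39, limma adjusted p = 0.0537). fru 1631498_a_at did not pass without Sxl RNAi replicate 1 or 2 or GFP RNAi replicate 1 or 2 (limma adjusted p from 0.0768 to 0.297). fru 1641338_at did not pass without Sxl RNAi replicate 1 or GFP RNAi replicate 2 (limma adjusted p = 0.0697 and 0.0570).

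The genes on either side of the members were read by 21 probe sets of 20 genes, bab1 and bab2 being neighbours of each other. With Sxl RNAi 3 passed: bab2 itself, Rtc1 beside Yp3, which rose by 0.49 (limma adjusted p = 0.00359), and CD98hc beside dsx, which fell by 0.34 (limma adjusted p = 0.0285). With Sxl and Msl2 RNAi 2 passed, bab2 and Rtc1, which rose by 0.40 (limma adjusted p = 0.0351). None passed between the knockdowns. Of all probe sets, 6.87%, 2.55% and 0.559% passed in these comparisons, and 17.1% between control sets. Rtc1 lies on the X chromosome, and whether its rise was part of the general X rise that the paper reports was not tested. CD98hc did not pass without any 1 of the Sxl RNAi or GFP RNAi arrays (limma adjusted p from 0.0632 to 0.170), and Rtc1 kept its Sxl RNAi call without any 1 array but not its double knockdown call, lost without Sxl RNAi replicate 3, either double knockdown array or GFP RNAi replicate 1 or 3 (limma adjusted p from 0.0677 to 0.232). Between control sets 5 passed: bab2, CG12868 beside tra2 (-1.32), CG12384 beside ix (0.41), squ beside her (-0.44) and CG15312 beside Yp1 (0.44), with limma adjusted p of 6.35e-05 to 0.0364 for the other four.

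The genes whose levels went most like tra and bab2 were found by Pearson correlation over the 8 arrays after the mean of each control set was taken off, with 1 probe set for each gene. For tra these were Acph-1, loqs and Tpi (r = 0.998 or more for each), KdelR (r = 0.998) and CG34417 (r = 0.996). Their fitted differences lay between -0.52 and -0.30 with Sxl RNAi and between -0.43 and -0.28 with Sxl and Msl2 RNAi, each smaller than that of tra. For bab2 they were cutlet (r = 0.997), MYPT-75D (r = 0.996), CG5359 (r = 0.996), Mcm5 (r = 0.996) and Mcm2 (r = 0.995). Their fitted differences lay between 0.42 and 0.60 with Sxl RNAi and between 0.53 and 0.79 with Sxl and Msl2 RNAi, again smaller than that of bab2. The choice by likeness fixes the direction of these differences, so they are a description. The correlations describe these 8 arrays, which share treatments, and the genes were the highest of all those compared. All 8 arrays were processed with RMA, and whether they were normalized together was not given in the sources used here. Of 36 calls against GFP RNAi made for the genes named here, these 10 included, other than the members, Sxl and msl-2, 5 were kept without any 1 array, and all 36 were lost without the control set block.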

How the data were processed

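Kc cell RNA was read on 8 Affymetrix arrays. The authors deposited 1 log2 value for each probe set and array, made with RMA, named in the submitters' processing notes, with version and options not given in the sources used here. RMA draws the arrays' distributions together, so changes are relative to other genes and total RNA is not seen. The array medians lay between 4.40 and 4.46.

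Of 18952 probe sets, 183 array controls were left out. Probe sets took their gene from the platform annotation (13647 with 1 symbol, 402 with several, 4720 with none), updated through the RefSeq table of Release 6 plus ISO1 MT. limma 3.58.1 (lmFit, eBayes) in R 4.3.3 was fitted to all 8 arrays with treatment and control set as terms (3 residual and 6.28 prior degrees of freedom), with Benjamini-Hochberg adjustment over all 18769 probe sets and a threshold of 0.05. The model was tested on simulated data.

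Control sets came from the labels. Deviations from group means correlated at 0.801 to 0.877 between Sxl RNAi and GFP RNAi arrays of a set, and at 0.367 to 0.473 between double knockdown arrays and others of their set. These correlations used the probe sets with a mean above the median.

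Alternatives were 16, among them leaving out each array, and some of these gave the same fit of treatments, as described below. Members, gene lists and alternatives were chosen with earlier results of these data known. All member probe sets were named, with Sxl and msl-2, up to 4 passing probe sets of a list, passing neighbours and the 5 genes most like tra and bab2. Other genes named were chosen after their values were seen. List genes with no probe set of 1 symbol were not analysed here. Sequences were not used here.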

Additional observations from a re-analysis of the deposited data

How the results depend on the processing

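Over 16 alternative settings no call of a member turned its direction. tra fell by 1.05 to 1.16 with Sxl RNAi and by 0.93 to 1.14 with the double knockdown, and bab2 differed by 0.89 to 1.62 and by 0.93 to 2.01. Of 47 member differences between treatments that did not pass, 1 passed in some setting, fru 1631498_a_at in the double knockdown. Of 36 calls of other named genes against GFP RNAi, 5 were kept without any 1 array, 36 were lost without the replicate block, and 1 turned its sign: CG34417 in the double knockdown, at 0.0041 with the replicate block by title number. The brp difference between control sets, which had not passed (-0.09), was -0.65 without Sxl RNAi replicate 1 and 0.48 without GFP RNAi replicate 2 (limma adjusted p = 0.0064 and 0.0225), the lowest and highest values with 1 array left out. The cause was not tested.

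Without the control set as a replicate block, 27 probe sets passed with Sxl RNAi (1 member, tra), 1 with Sxl and Msl2 RNAi (0 members) and 1 between the knockdowns. With the replicate block by title number, 0 passed with Sxl RNAi (0 members), 1 with Sxl and Msl2 RNAi (0 members) and 1 between the knockdowns, and tra with Sxl RNAi had a limma adjusted p of 0.135. Deviations of the 5 pairs of arrays that share a title number but no control set correlated at -0.693 to 0.0681. Deviations cancel within each treatment group, so high values within control sets force low values in other pairs. The cause of the lost calls was not tested. An intensity trend gave 868 calls with Sxl and Msl2 RNAi and 226 between the knockdowns, and robust eBayes left 1 member in the double knockdown, tra. With 1 probe set for each gene, 3 members differed between control sets, bab2, tra and tra2. The probe sets fru 1631498_a_at and fru 1641338_at, which had passed, were not among those kept.

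Leaving out 1 array at a time gave 452 to 1093 calls with Sxl RNAi (1 to 2 members), 20 to 663 with Sxl and Msl2 RNAi (1 to 3 members), 6 to 89 between the knockdowns and 1653 to 3101 between control sets (1 to 5 members). Where this left 1 array of Sxl and Msl2 RNAi, that array was assumed to vary like the others. Some of these fits repeated each other. With 1 array of control set 2 left out, the other array of that set carried no information on treatment. Leaving out 1 or both gave 1074 calls with Sxl RNAi, 663 with Sxl and Msl2 RNAi and 84 between the knockdowns. Without either Sxl and Msl2 RNAi array, the fits of Sxl RNAi against GFP RNAi and of the control sets were also the same. Such repeats are not separate checks of a call. Dim signals limit what can be seen of dsx, her, bab1, Yp1 and Yp3.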

Other observations

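Markers of cells other than blood cells were also read. Of the neuron markers, 6 of 7 genes were measured, by 9 probe sets, 5 above the Y-linked range in all arrays. With Sxl RNAi elav, an RNA-binding protein of the Sxl family, rose by 0.66 (limma adjusted p = 0.00333). The probe set 1625489_at of brp, a synapse scaffold gene, fell by 0.77 (limma adjusted p = 0.0398), and no other brp probe set passed. With Sxl and Msl2 RNAi none passed, elav differing by 0.44 and brp 1625489_at by -0.95 (limma adjusted p = 0.0667 and 0.0615). elav passed without any 1 array. brp did not pass without Sxl RNAi replicate 2 or 3, either double knockdown array or GFP RNAi replicate 1 or 3 (limma adjusted p from 0.0678 to 0.216). elav read 7.02, 8.19 and 7.86 in Sxl RNAi, 7.93 and 7.55 in Sxl and Msl2 RNAi, and 7.39, 6.62 and 7.10 in GFP RNAi. Of the germ line and testis markers, 8 of 9 genes were measured, by 10 probe sets, 3 above the Y-linked range in all arrays. twe, a phosphatase of meiosis, rose by 0.30 with Sxl RNAi (limma adjusted p = 0.0373), a call lost without any 1 of the Sxl RNAi or GFP RNAi arrays (limma adjusted p from 0.0761 to 0.194), and none passed with Sxl and Msl2 RNAi.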
